A study of Homo sapiens with 10 samples.

Results

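Aminoacyl-tRNA synthetases, the enzymes that load each transfer RNA with its amino acid, were followed in 10 RNA-seq libraries of the leukemia cell line RS4;11. The genes were chosen by name and function as the enzymes of cytosolic and of mitochondrial charging, and 36 genes were taken from 63677 gene identifiers, 20 of them cytosolic and 16 mitochondrial. All 36 had an identifier in the count tables, and 34 of them, 19 cytosolic and 15 mitochondrial, passed the filter on low counts among 16756 genes that were tested.

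RS4;11 is a cell line of acute lymphoblastic leukemia of B cell precursors (BCP-ALL) and is sensitive to the BCL-2 inhibitor venetoclax (VEN). The study derived 5 VEN-insensitive lines (VENins lines) from it by growing the cells in rising VEN concentrations, and carried 5 control lines (VENsens lines) alongside in the solvent DMSO. After a wash, RNA of neither group was taken in the presence of VEN, although VENins lines had been grown in it until then. The comparison asks how the transcriptomes of the insensitive and the sensitive lines differ. Each of the 10 lines gave 1 library, and 20631907 to 28323643 reads per library were counted on genes. As all lines came from a single parental cell line, p-values measure the spread between these sublines only. Over the 20 pairs of libraries within a group, chi-square per degree of freedom was 1.92 to 14.2, so no pair agreed within sampling noise. In bulk RNA, fewer cells that express a gene and less RNA per cell cannot be told apart.

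Every amino acid has its own synthetase, and cytosol and mitochondria mostly use separate nuclear genes, of which those for mitochondria carry the suffix 2. GARS and KARS each serve both compartments from a single gene, EPRS joins the glutamate and the proline enzyme in a single chain, FARSA and FARSB are the subunits of the cytosolic phenylalanine enzyme, and several cytosolic enzymes sit in the multi-synthetase complex with the scaffold proteins AIMP1, AIMP2 and EEF1E1. Uncharged transfer RNA activates the kinase GCN2 (encoded by EIF2AK4), which phosphorylates eIF2 and so raises translation of the transcription factor ATF4, and many cytosolic synthetase genes are known ATF4 targets.

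The libraries held the transcripts that mark this leukemia. 783 CPM (counts scaled to a common library total with trimmed mean of M-values factors) of PAX5, the B-lineage transcription factor, were measured on average in VENsens lines, beside 548 CPM of CD79A. HOXA9, which is high in KMT2A-rearranged leukemia, stood at 143 ± 1.43 CPM (SD, n = 5). Among 10 markers of T cells, myeloid, erythroid, stromal and endothelial cells, 5 passed the filter, HBA1 and PECAM1 were at 0 in every library, and the most abundant was the myeloid receptor gene CSF1R with 8.77 ± 1.48 CPM (SD, n = 5) in VENsens and 10.2 ± 0.889 CPM (SD, n = 5) in VENins lines. Summed over the 5 tested markers, the average level was 13.4 CPM for the VENsens and 14.5 CPM for the VENins group. DNTT was the least abundant of the 10 leukemia markers in both groups, from 1.08 CPM in VENins line 1 to 27.3 CPM in VENins line 4.

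No synthetase gene passed the test between VENins and VENsens lines. With line number as a block in edgeR's quasi-likelihood test with Benjamini-Hochberg adjustment, 0 of 34 tested members had an adjusted p under 0.05, where 33 of 16756 genes (0.197%) did. At an unadjusted p under 0.05 stood 2 members, EPRS and NARS2, both lower in VENins lines, beside 2710 of all tested genes (16.2%). Which members these are depended on single pairs: without pair 2 there were 0, without pair 3 EPRS and CARS2, the latter higher, and without pair 5 RARS alone, which was higher. Without the block, edgeR called 149 genes and 0 of the 34 members, with 1 cytosolic and 2 mitochondrial members at an unadjusted p under 0.05. DESeq2 also called 0 of 34 members with and without the block, and had 1 cytosolic and 1 mitochondrial member at an unadjusted p under 0.05 with the block, 1 and 2 without it. In no member did the 5 VENins libraries separate from the 5 VENsens libraries, while they did in 781 of 16756 genes (4.66%).

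The fold changes of the family were small in both directions. Of the cytosolic members 10 had a higher and 9 a lower fitted value in VENins lines, with a median log2 fold change of 0.0012 and single genes from -0.15 for EPRS to 0.11 for RARS. Of the mitochondrial members 6 were higher and 9 lower, with a median of -0.012 and single genes from -0.17 for NARS2 to 0.11 for CARS2. With library size alone as the scale the cytosolic median had the opposite sign, -0.0049, and the mitochondrial median was -0.018. When single pairs were left out, the cytosolic median ran from -0.015 to 0.029, with 15 of 19 higher without pair 1 and 7 without pair 3, and the mitochondrial median from -0.024 to 0.0011. The sign of the fitted value turned in 18 of 34 members when at least 1 of the pairs was left out. Over all tested genes the median was 0.0035 and 51.1% were higher. The median size of the change without its sign was 0.038 over the 34 members and 0.094 over all tested genes. The 95% intervals of the 34 members lay between -0.31 and 0.29 on the log2 scale, the outer bounds being those of NARS2 and SARS2. Summed over the 19 cytosolic members, VENsens lines held 4735 CPM and VENins lines 4656 CPM on average, and summed over the 15 mitochondrial members 655 and 645 CPM.

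**Figure D1:**
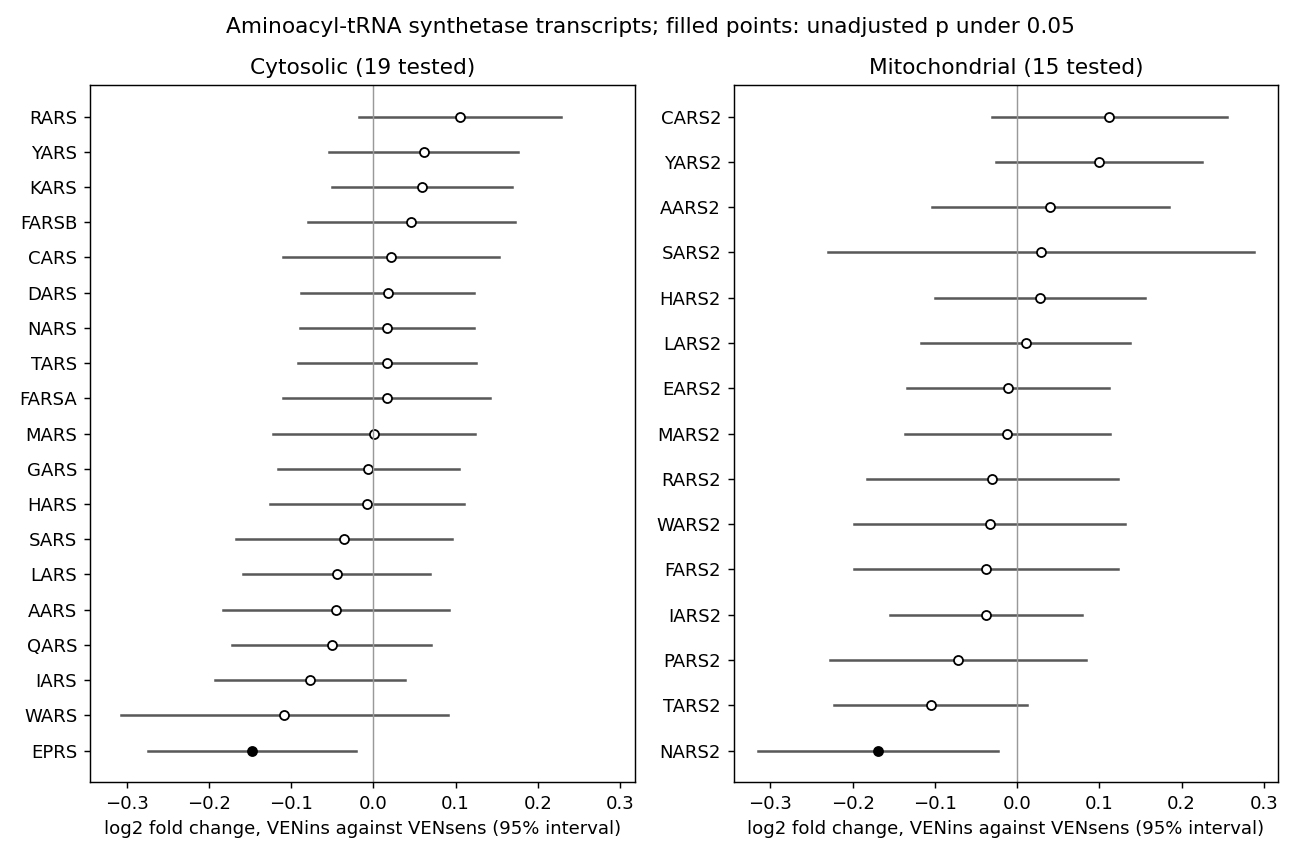
Log2 fold change of each tested synthetase gene in VENins against VENsens lines (x axis) with its 95% interval (bars), cytosolic genes left and mitochondrial genes right, 5 libraries per group; filled points have an unadjusted p under 0.05. EPRS and NARS2 are the filled points, at -0.15 and -0.17, and the other 32 intervals cross 0. Intervals and p come from the same test statistic.

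EPRS (ENSG00000136628), the glutamyl-prolyl enzyme of the multi-synthetase complex, had the smallest p of the family. Its levels were 308, 310.1, 279, 298 and 302 CPM in VENsens lines 1 to 5 and 271, 249, 286, 294 and 253 CPM in VENins lines 1 to 5. VENins lines 1, 2 and 5 lay under all VENsens lines, whereas VENins lines 3 and 4 lay within their range. The group means were 299 ± 12.4 CPM (SD, n = 5) in VENsens and 271 ± 19.8 CPM (SD, n = 5) in VENins lines, a log2 fold change of -0.15 (SE 0.059, 95% interval -0.27 to -0.022) that did not pass the test (adjusted p = 0.239, edgeR's quasi-likelihood test with Benjamini-Hochberg adjustment; higher in 1 of 5 pairs, a pair being the VENins and the VENsens line of the same number).

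RARS, the arginyl enzyme of the same complex, had the largest positive value among cytosolic members. It was measured at 47.2, 49.6, 51.1, 46.6 and 46.2 CPM in VENsens lines 1 to 5 and 53.2, 52.4, 53.8, 53.8 and 46.0 CPM in VENins lines 1 to 5. VENins lines 1 to 4 lay above every VENsens line and VENins line 5 lay below all of them. Its log2 fold change of 0.11 (SE 0.058, 95% interval -0.017 to 0.23) did not pass (adjusted p = 0.387, edgeR's quasi-likelihood test with Benjamini-Hochberg adjustment; higher in 4 of 5 pairs). IARS, the isoleucyl enzyme and also a complex member, had 584, 587, 559.7, 558 and 559 CPM in VENsens lines 1 to 5 and 517, 500.5, 557, 577 and 551 CPM in VENins lines 1 to 5. VENins line 4 lay within the VENsens range, VENins lines 3 and 5 just under it, and VENins lines 1 and 2 were the lowest. The log2 fold change of IARS was -0.077 (SE 0.054, 95% interval -0.19 to 0.038) (adjusted p = 0.510, edgeR's quasi-likelihood test with Benjamini-Hochberg adjustment; higher in 1 of 5 pairs). Of the 8 synthetases of the complex, 4 were higher and 4 lower in VENins lines with a median log2 fold change of -0.022, beside 6 and 5 of the 11 tested cytosolic enzymes outside it with a median of 0.016. Both medians had the opposite sign without some pairs: without pair 1 the complex median was 0.0092 and 11 of 11 outside it were higher, and 4 of 11 were without pair 4.

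The enzymes used by both compartments showed little difference. KARS, which charges lysine, had 205, 189.8, 204, 196 and 204 CPM in VENsens lines 1 to 5 and 197, 208, 218, 209.8 and 208 CPM in VENins lines 1 to 5. The groups overlapped, with VENins line 3 highest and VENsens line 2 lowest. The log2 fold change was 0.059 (SE 0.051, 95% interval -0.051 to 0.17) (adjusted p = 0.612, edgeR's quasi-likelihood test with Benjamini-Hochberg adjustment; higher in 4 of 5 pairs). GARS, which charges glycine, had 229.5, 215, 225, 217 and 226 CPM in VENsens lines 1 to 5 and 207, 212, 233, 225 and 230.5 CPM in VENins lines 1 to 5. VENins lines 1 and 2 were the lowest and VENins line 3 the highest of the 10 libraries. For GARS the log2 fold change was -0.0060 (SE 0.052, 95% interval -0.12 to 0.10) (adjusted p = 0.974, edgeR's quasi-likelihood test with Benjamini-Hochberg adjustment; higher in 3 of 5 pairs). Reads counted on the pseudogenes KARSP1 and KARSP3 amounted to 1.72% and 0.557% of the KARS reads, and how counting split reads between such copies is uncertain. AARS, the alanyl enzyme, was the highest of all members per length of annotated exon and had 460.0, 395, 402, 429 and 409.5 CPM in VENsens lines 1 to 5 and 383, 359, 407, 403 and 484 CPM in VENins lines 1 to 5. VENins line 5 and VENsens line 1 were the highest and VENins lines 1 and 2 the lowest, so that the VENins range enclosed the VENsens range. For AARS the log2 fold change was -0.046 (SE 0.064, 95% interval -0.18 to 0.092) (adjusted p = 0.782, edgeR's quasi-likelihood test with Benjamini-Hochberg adjustment; higher in 2 of 5 pairs).

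WARS, the tryptophanyl enzyme, is known to be induced by interferon-gamma. It was measured at 547, 389, 381, 393 and 368 CPM in VENsens lines 1 to 5 and 344, 341, 394, 402 and 431 CPM in VENins lines 1 to 5. VENsens line 1 stood apart from the other 9 libraries, and those overlapped between the groups. The log2 fold change was -0.11 (SE 0.093, 95% interval -0.31 to 0.090) and did not pass (adjusted p = 0.605, edgeR's quasi-likelihood test with Benjamini-Hochberg adjustment; higher in 3 of 5 pairs). Without line pair 1 it was 0.031, so its sign rested on that pair, in which the VENsens line held the high value. Of 12 interferon-gamma induced genes, 6 passed the filter on low counts and were tested, so they cover only part of the list. Of the 6, 2 were higher and 4 lower in VENins lines. Of these 6, 2 were called lower, beside 0.197% of all tested genes called in either direction. The number called was 4 with no filter on low counts, 2 with DESeq2 and the block, 3 with DESeq2 and no block, and 0 without pair 2 or pair 5. At an unadjusted p under 0.05 stood 1 higher and 4 lower, beside 16.2% of all tested genes. GBP2, which encodes a guanylate-binding protein, had 5.74, 6.44, 6.73, 6.59 and 6.62 CPM in VENsens lines 1 to 5 and 2.44, 3.72, 2.81, 4.95 and 3.18 CPM in VENins lines 1 to 5. All VENins lines lay under all VENsens lines, at a log2 fold change of -0.93 (SE 0.14, 95% interval -1.22 to -0.64) (adjusted p = 0.0117, edgeR's quasi-likelihood test with Benjamini-Hochberg adjustment; higher in 0 of 5 pairs). CIITA, the class II transactivator, had 84.8, 89.2, 77.2, 80.5 and 75.9 CPM in VENsens lines 1 to 5 and 52.8, 45.5, 59.3, 71.4 and 55.8 CPM in VENins lines 1 to 5. All VENins lines again lay under all VENsens lines, at a log2 fold change of -0.53 (SE 0.088, 95% interval -0.72 to -0.34) (adjusted p = 0.0267, edgeR's quasi-likelihood test with Benjamini-Hochberg adjustment; higher in 0 of 5 pairs). Both calls were lost without pair 2 (GBP2 adjusted p = 0.104, CIITA adjusted p = 0.209, edgeR's quasi-likelihood test with Benjamini-Hochberg adjustment) and without pair 5 (adjusted p = 0.0563 and 0.0689 in the same test). Over all alternatives, DESeq2 and edgeR with Benjamini-Hochberg adjustment, the adjusted p ran from 4.40e-11 to 0.104 for GBP2 and from 7.27e-12 to 0.209 for CIITA.

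WARS was the only cytosolic member with both interferon-type motifs that were searched in a promoter window, for which reason the stretch is shown. Windows from RefSeq (GRCh38.p14) span 250 bases before to 50 bases after each annotated start, and 30 of the 36 members had at least 1 window. At the second annotated WARS start, TTCNNNGAA, the palindromic STAT motif known as GAS, began 142 bases and the interferon response element core, GAAA repeated after any 2 bases, 55 bases before the start. Both motifs are in capitals in this stretch of 113 bases at chr14:100375385-100375497, minus strand.
WARS: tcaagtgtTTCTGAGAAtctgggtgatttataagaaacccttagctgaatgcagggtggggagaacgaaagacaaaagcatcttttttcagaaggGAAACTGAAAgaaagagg
On both strands, GAS was found in 7.66% and the response element core in 3.57% of 35116 windows of this length. A letter match does not show that a factor binds.

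Among mitochondrial enzymes, NARS2, which charges asparagine, had the smallest p. Its levels were 78.9, 85.0, 87.7, 85.9 and 93.2 CPM in VENsens lines 1 to 5 and 70.5, 73.1, 78.2, 93.1 and 69.7 CPM in VENins lines 1 to 5. VENins lines 1, 2, 3 and 5 lay under every VENsens line, and VENins line 4 lay within their range, just under VENsens line 5. The means were 86.1 ± 5.17 CPM (SD, n = 5) and 76.9 ± 9.62 CPM (SD, n = 5), and the log2 fold change of -0.17 (SE 0.068, 95% interval -0.31 to -0.024) did not pass (adjusted p = 0.242, edgeR's quasi-likelihood test with Benjamini-Hochberg adjustment; higher in 1 of 5 pairs). TARS2, the threonyl enzyme, had 49.2, 47.5, 49.8, 51.6 and 51.9 CPM in VENsens lines 1 to 5 and 44.6, 45.1, 46.1, 47.0 and 49.7 CPM in VENins lines 1 to 5. It was lower in the VENins line in 5 of 5 pairs, yet VENins line 5 lay within the VENsens range, and the log2 fold change was -0.11 (SE 0.055, 95% interval -0.22 to 0.012) (adjusted p = 0.365, edgeR's quasi-likelihood test with Benjamini-Hochberg adjustment; higher in 0 of 5 pairs).

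YARS2, the tyrosyl enzyme, had 36.1, 37.6, 38.6, 39.1 and 39.7 CPM in VENsens lines 1 to 5 and 38.3, 39.6, 39.5, 44.4 and 43.0 CPM in VENins lines 1 to 5. It was higher in the VENins line in 5 of 5 pairs with overlapping groups, and the log2 fold change was 0.10 (SE 0.058, 95% interval -0.025 to 0.22) (adjusted p = 0.424, edgeR's quasi-likelihood test with Benjamini-Hochberg adjustment; higher in 5 of 5 pairs). CARS2, the cysteinyl enzyme, had 58.7, 51.8, 58.9, 57.4 and 56.3 CPM in VENsens lines 1 to 5 and 60.0, 61.9, 53.9, 61.1 and 69.8 CPM in VENins lines 1 to 5. VENins line 5 was the highest of all and VENins line 3 lay within the VENsens range, with a log2 fold change of 0.11 (SE 0.067, 95% interval -0.031 to 0.25) (adjusted p = 0.432, edgeR's quasi-likelihood test with Benjamini-Hochberg adjustment; higher in 4 of 5 pairs). IARS2, the most abundant mitochondrial member per length, had 125, 137, 135, 136 and 144 CPM in VENsens lines 1 to 5 and 132, 132, 136, 133 and 127 CPM in VENins lines 1 to 5. The VENins lines lay within the VENsens range, with a log2 fold change of -0.038 (SE 0.055, 95% interval -0.15 to 0.078) (adjusted p = 0.786, edgeR's quasi-likelihood test with Benjamini-Hochberg adjustment; higher in 2 of 5 pairs). The remaining mitochondrial members AARS2, EARS2, FARS2, LARS2, MARS2, PARS2, RARS2 and WARS2 had log2 fold changes from -0.072 for PARS2 to 0.041 for AARS2. The remaining cytosolic members CARS, DARS, FARSA, FARSB, LARS, MARS, NARS, QARS, SARS, TARS and YARS ran from -0.051 for QARS to 0.062 for YARS.

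SARS2, the mitochondrial seryl enzyme, was the least abundant member per length, and its value is uncertain. It had 4.95, 5.62, 4.65, 4.29 and 4.43 CPM in VENsens lines 1 to 5 and 4.42, 4.82, 4.43, 5.62 and 5.097 CPM in VENins lines 1 to 5, from 94 to 143 reads per library, with overlapping groups and a log2 fold change of 0.029 (SE 0.12, 95% interval -0.23 to 0.29) (adjusted p = 0.937, edgeR's quasi-likelihood test with Benjamini-Hochberg adjustment; higher in 2 of 5 pairs). Exons of other genes, MRPS12 and AC011455.2, cover 57.0% of its exon bases in GENCODE 29, and reads that overlap more than 1 gene are set aside as ambiguous in such counting. Overlap covers 15.8% of HARS2, 12.4% of MARS, which overlaps the ATF4 target gene DDIT3, 10.6% of WARS, and under 10% of every other tested member.

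The valyl enzymes VARS and VARS2 were listed at 0 in all 10 libraries and were not tested. Both lie on chromosome 6 in the stretch between HLA-F and HLA-DPB1, in which 112 of 136 protein-coding genes were at 0 in every library (82.4%), among them TAP1, PSMB8 and PSMB9. Elsewhere on chromosome 6, 169 of 859 were at 0 (19.7%), and AARS2, FARS2 and RARS2 on the same chromosome were counted. Since the cytosolic valyl enzyme is needed by every cell, the listed 0 is not read as a level.

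Levels between genes were compared as CPM per kilobase of all annotated exons of a gene (CPM per kb). Per library, 24.6% to 26.2% of reads were left out for low alignment quality and 9.39% to 10.2% were not aligned. Whether these losses differ between genes was not tested, and a length scale does not correct for them. After the data were seen, the length of the longest protein-coding transcript was tried as another scale, and the order of genes depended on this choice. Cytosolic members reached a median of 50.2 and mitochondrial members 7.78 CPM per kb, beside 5.03 CPM per kb over all tested genes. Per transcript length these medians were 82.3 and 11.3. AARS led with 91.9 ± 8.08 (SD, n = 10), followed by SARS with 79.2 ± 5.43, IARS with 75.0 ± 3.73 and NARS with 74.9 ± 1.87 CPM per kb, and the ranges of these neighbours overlapped. Per transcript length SARS led with 161 ± 11.1, followed by YARS with 135 ± 7.52 and WARS with 129 ± 18.9, and AARS had 119 ± 10.5 CPM per kb. On both scales IARS2 was the highest mitochondrial member, with 32.1 ± 1.32 CPM per kb of exon and 37.5 ± 1.54 per transcript length. HARS was the lowest cytosolic member on both, with 8.41 ± 0.297 and 18.9 ± 0.667, and SARS2 the lowest of all, with 1.50 ± 0.151 and 2.35 ± 0.237 CPM per kb. Of 33 neighbouring pairs in the order by exon length 27 overlapped in their libraries and 6 did not.

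For the same amino acid, the cytosolic gene was more abundant per length than its mitochondrial partner in every library in 13 of 14 pairs by exon length and in 14 of 14 by the length of the longest protein-coding transcript. By exon length the mean ratio was 13.3 for alanine (12.0 to 15.9 over 10 libraries), 2.92 for asparagine (2.51 to 3.32) and 1.74 for methionine (1.58 to 2.11). By transcript length these ratios were 15.4, 3.08 and 4.21. For serine it was 53.3 by exon and 69.2 by transcript length, a value that carries the uncertainty of SARS2. By exon length, the asparagine ratio averaged 2.73 ± 0.198 over VENsens and 3.11 ± 0.262 over VENins lines (SD, 5 libraries in each group) with overlapping groups, and 0 of 14 ratios separated the groups.

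**Figure D2:**
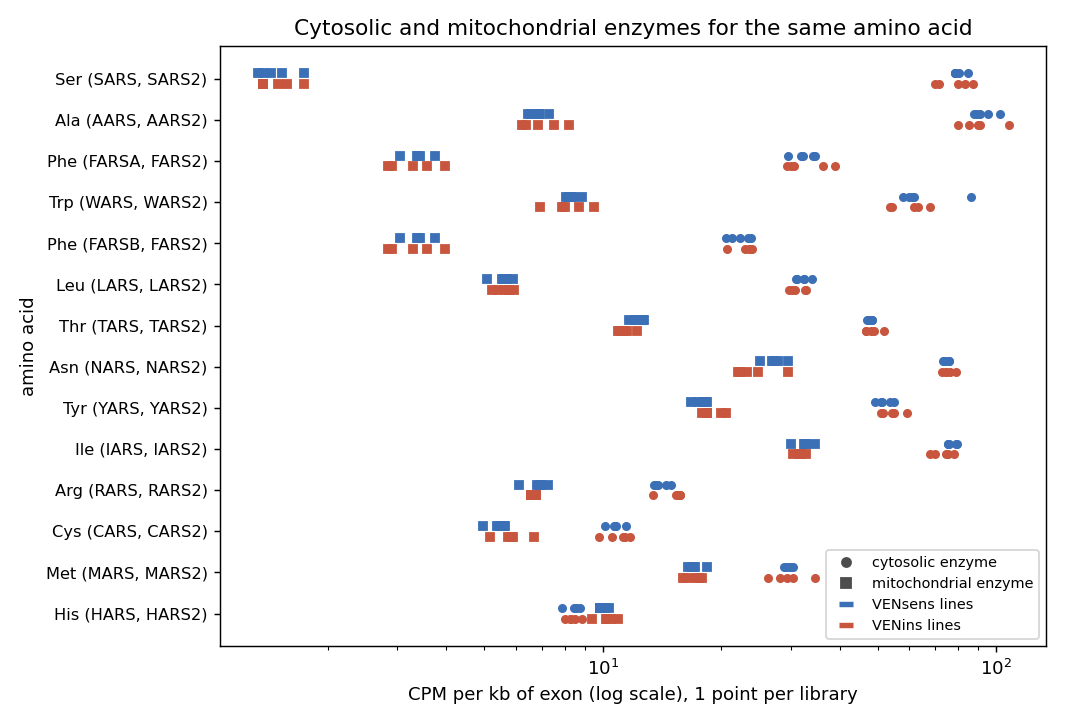
CPM per kb of all annotated exons (x axis, log scale) of the cytosolic (circles) and mitochondrial (squares) synthetase gene for each amino acid, 1 point per library, VENsens lines in blue above VENins lines in red; FARS2 is drawn beside both FARSA and FARSB. Circles lie to the right of squares in every row except histidine, where HARS lies at 8.41 and HARS2 at 10.1 CPM per kb on average; by transcript length HARS lies above HARS2.

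For histidine the order of the partners depended on the length used. HARS (cytosolic) had 68.8, 61.9, 66.9, 66.3 and 67.1 CPM in VENsens lines 1 to 5 and 63.1, 64.8, 66.6, 69.4 and 65.2 CPM in VENins lines 1 to 5. HARS2 (mitochondrial) had 37.3, 38.0, 38.7, 36.8 and 36.7 CPM in VENsens lines 1 to 5 and 39.2, 40.8, 38.4, 35.0 and 38.1 CPM in VENins lines 1 to 5. In both genes the groups overlapped. HARS had a log2 fold change of -0.0079 (SE 0.055, 95% interval -0.13 to 0.11) (adjusted p = 0.968, edgeR's quasi-likelihood test with Benjamini-Hochberg adjustment; higher in 2 of 5 pairs). That of HARS2 was 0.028 (SE 0.060, 95% interval -0.10 to 0.16) (adjusted p = 0.864, edgeR's quasi-likelihood test with Benjamini-Hochberg adjustment; higher in 3 of 5 pairs). Per base of annotated exon (7853 bases for HARS and 3736 for HARS2) the ratio of HARS to HARS2 was 0.831, from 0.756 to 0.943 over the 10 libraries. Per base of the longest protein-coding transcript (3494 and 2510 bases) it was 1.25, from 1.14 to 1.42, so which gene is the more abundant per length is uncertain. The genes are paralogs that lie head to head on chromosome 5, and none of 3265 stretches of 50 bases in the protein-coding transcripts of HARS2 occurred in those of HARS. Their RefSeq start sites lie 85 bases apart on opposite strands, and the 84 bases between them are at chr5:140691371-140691454 in GRCh38.p14, shown on the plus strand on which HARS2 is read.
HARS-HARS2: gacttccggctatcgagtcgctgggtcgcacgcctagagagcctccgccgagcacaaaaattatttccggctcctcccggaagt
None of the motifs searched here occurs in this stretch, and 59.5% of its bases are G or C.

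VENins lines differed more among themselves than VENsens lines did for most members. The SD of log2 CPM was larger among VENins than among VENsens lines in 27 of 34 members (79.4%), beside 62.2% of all tested genes, with a median SD of 0.087 in VENins and 0.058 in VENsens lines. VENins line 5 held the highest of the 10 values in 10 of 34 members, beside 20.3% of all tested genes, and VENins line 4 in 7, beside 8.08%. The lowest value belonged to VENins line 1 in 10 members, beside 9.76% of all tested genes, and to VENins line 2 in 8, beside 11.3%. Cytosolic members held 7 and 5 of these. MARS, the methionyl enzyme, had 211, 203, 205, 214 and 209 CPM in VENsens lines 1 to 5 and 198, 184, 207, 214 and 243 CPM in VENins lines 1 to 5. The VENsens lines lay close together, and VENins line 5 stood above and VENins lines 1 and 2 below all of them. VENins line 4 was only just above the highest VENsens line, at 213.9 against 213.7 CPM.

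**Figure D3:**
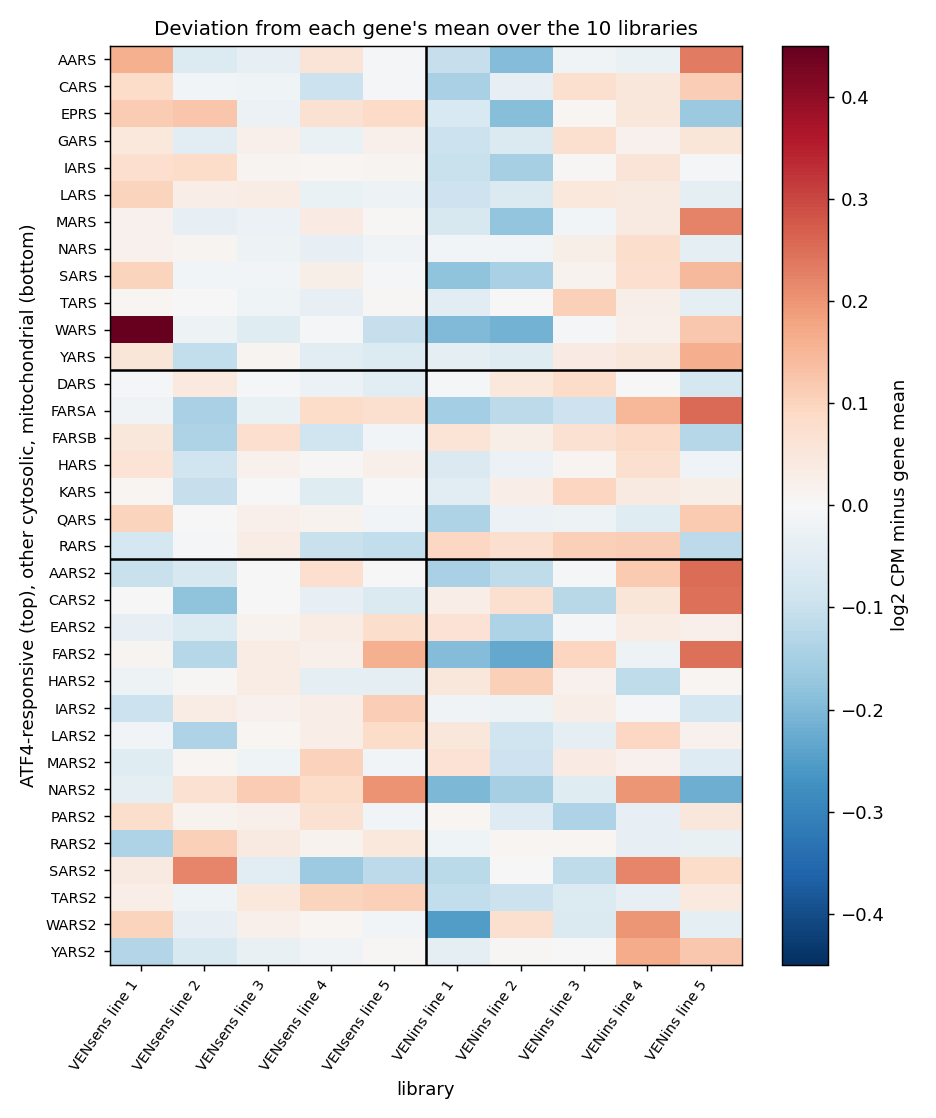
Deviation of each tested synthetase gene (rows) from its own mean over the 10 libraries (columns), in log2 CPM, red above and blue below the mean; the upper block holds the ATF4-responsive genes, the middle block the other cytosolic genes and the lower block the mitochondrial genes. VENins lines 1 and 2 are blue for most genes of the upper block, and WARS in VENsens line 1 is the deepest red.

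The pattern between lines was followed in 13 cytosolic synthetases that are known from the literature to respond to ATF4, of which 12 were tested. The mean deviation of these 12 from their means over all libraries was 0.10, -0.0042, -0.011, -0.0073 and -0.0078 in VENsens lines 1 to 5 and -0.10, -0.11, 0.030, 0.040 and 0.062 in VENins lines 1 to 5 on the log2 scale. VENins lines 1 and 2 were the lowest and VENsens line 1 the highest, and VENins lines 3 to 5 lay between VENsens line 1 and the other VENsens lines. The mean deviation of the 10 leukemia markers was lowest in VENins lines 1 and 2, at -0.21 and -0.12, and highest in VENins line 4, at 0.23. This mean includes DNTT, the least abundant marker, which was itself lowest in VENins line 1 and highest in VENins line 4. The median difference of the 10 markers was -0.078, 0.087, 0.019, -0.0077 and 0.098 in pairs 1 to 5. In these pairs 5, 6, 5, 4 and 5 of the 10 markers were higher in the VENins line. Whether markers and synthetases are linked was not tested. In the fit, 5 of the 12 were higher and 7 lower in VENins lines, with a median log2 fold change of -0.021. Without pair 1 the direction turned, to 9 higher, 3 lower and a median of 0.027. The other 7 cytosolic members deviated by 0.017, -0.064, 0.016, -0.023 and -0.012 in VENsens and by -0.036, 0.00034, 0.036, 0.058 and 0.0081 in VENins lines, with 5 higher, 2 lower and a median of 0.018. The 15 mitochondrial members deviated by -0.025, -0.016, 0.018, 0.021 and 0.035 in VENsens and by -0.056, -0.048, -0.029, 0.056 and 0.044 in VENins lines.

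The mean of ATF4 target genes outside the family did not separate the groups either. This mean deviation over 25 tested genes was 0.083, -0.11, -0.028, 0.017 and -0.030 in VENsens and -0.090, -0.076, 0.0084, 0.033 and 0.19 in VENins lines, with VENins line 5 highest and VENsens line 2 lowest, followed by VENins lines 1 and 2. In the fit, 15 of the 25 were higher and 10 lower, with a median log2 fold change of 0.030. By edgeR's quasi-likelihood test with Benjamini-Hochberg adjustment 0 were called, beside 0.197% of all tested genes. Of the list, 3 higher and 2 lower had an unadjusted p under 0.05, beside 16.2% of all tested genes. DESeq2 called 1 with and 1 without the block. The same edgeR test called 3 of the 25 with no filter on low counts and 0 without the block. Without pair 5 the direction turned, to 11 higher, 14 lower and a median of -0.012. Without pair 1, 19 were higher with a median of 0.073, 12 had an unadjusted p under 0.05 and 1 was called, and 1 had an unadjusted p under 0.05 without pair 2. The share of all tested genes at that p is not given here for fits without a pair. The 5 tested cytosolic elongation factors, which are in neither list of ATF4 targets, deviated by 0.12, -0.064, -0.013, -0.033 and 0.0070 in VENsens and by -0.10, -0.045, -0.022, 0.0095 and 0.14 in VENins lines, with VENins line 5 and VENsens line 1 highest and VENins line 1 lowest. ATF4 itself had 1014, 856, 1017, 979 and 993 CPM in VENsens lines 1 to 5 and 939, 1034, 1040, 1033 and 1139 CPM in VENins lines 1 to 5. The groups overlapped, and the log2 fold change was 0.094 (SE 0.057, 95% interval -0.029 to 0.22) (adjusted p = 0.442, edgeR's quasi-likelihood test with Benjamini-Hochberg adjustment; higher in 4 of 5 pairs). This value was 0.049 without pair 2 and 0.15 without pair 1. ASNS, asparagine synthetase and a standard ATF4 target, had a log2 fold change of 0.13 (SE 0.072, 95% interval -0.027 to 0.28) (adjusted p = 0.410, edgeR's quasi-likelihood test with Benjamini-Hochberg adjustment; higher in 4 of 5 pairs), and of 0.064 without pair 5. DDIT3, which encodes CHOP, was higher in the VENins line in 5 of 5 pairs with a log2 fold change of 0.19 (SE 0.068, 95% interval 0.045 to 0.34) that did not pass (adjusted p = 0.190, edgeR's quasi-likelihood test with Benjamini-Hochberg adjustment; higher in 5 of 5 pairs).

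SLC7A1, the cationic amino acid transporter gene that carries arginine and lysine into the cell, had the smallest p of this list. Its levels were 321, 343, 309, 332 and 339.9 CPM in VENsens lines 1 to 5 and 293, 267, 281, 299 and 303 CPM in VENins lines 1 to 5. All VENins lines lay under all VENsens lines, and it was the only gene of the list without overlap (1 of 25, beside 4.66% of all tested genes). The log2 fold change of -0.19 (SE 0.052, 95% interval -0.30 to -0.078) did not pass (adjusted p = 0.115, edgeR's quasi-likelihood test with Benjamini-Hochberg adjustment; higher in 0 of 5 pairs), and DESeq2 gave adjusted p = 0.0498 with and 0.00956 without the block, and edgeR gave 0.0476 with no filter on low counts, within a range of 0.00956 to 0.561 over all alternatives. Among 9 genes of eIF2 and of the kinases and phosphatase subunits that act on it, 3 were higher and 6 lower. Calls numbered 0 in edgeR's quasi-likelihood test with Benjamini-Hochberg adjustment, and 0 in DESeq2 with and without the block. An unadjusted p under 0.05 was reached by 3 (0 without pair 2 and 1 without pair 3), beside 16.2% of all tested genes. EIF2AK4, which encodes the sensor of uncharged transfer RNA GCN2, had 61.9, 73.3, 63.4, 68.7 and 67.5 CPM in VENsens lines 1 to 5 and 55.4, 52.5, 58.7, 70.8 and 51.1 CPM in VENins lines 1 to 5. VENins line 4 lay within the VENsens range and the other VENins lines under it, with a log2 fold change of -0.22 (SE 0.073, 95% interval -0.38 to -0.065) (adjusted p = 0.168, edgeR's quasi-likelihood test with Benjamini-Hochberg adjustment; higher in 1 of 5 pairs). EIF2S2, the beta subunit of eIF2, had a log2 fold change of 0.13 (SE 0.056, 95% interval 0.0090 to 0.25) (adjusted p = 0.276, edgeR's quasi-likelihood test with Benjamini-Hochberg adjustment; higher in 4 of 5 pairs).

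**Figure D4:**
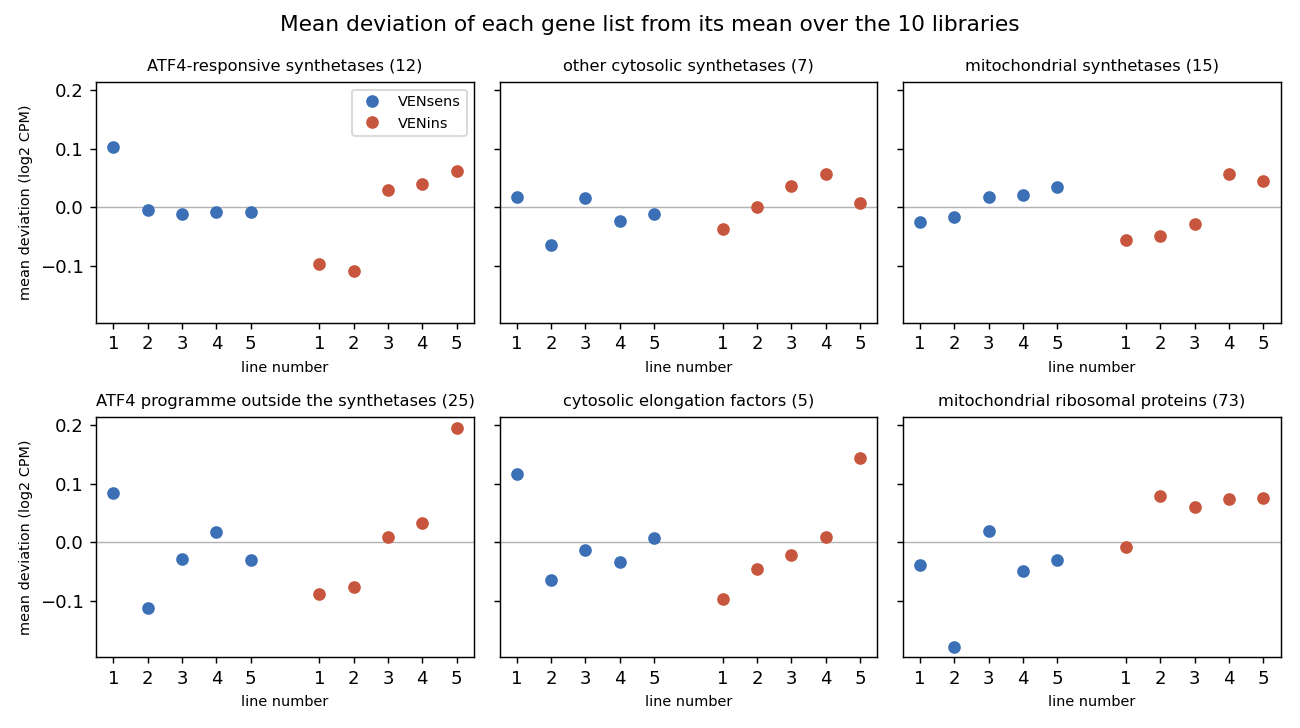
Mean deviation of the genes of each list from their means over the 10 libraries (y axis, log2 CPM) for VENsens lines 1 to 5 (blue) and VENins lines 1 to 5 (red); the number of tested genes is in brackets. ATF4-responsive synthetases are lowest in VENins lines 1 and 2 and highest in VENsens line 1, whereas ATF4 target genes outside the family are lowest in VENsens line 2 and highest in VENins line 5.

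A sequence feature that the choice of members did not use was shared by 7 of the cytosolic genes. TGATGNAA, the core of the C/EBP-ATF response element bound by ATF4 with its C/EBP partners, was found on either strand in the windows of 7 of 16 cytosolic members with a window (43.8%) and of 1 of 14 mitochondrial members, YARS2. It occurred in 3.62% of 35116 windows and in at least 1 window of 4.46% of 27305 genes. All 7 were among the 10 ATF4-responsive members with a window, and 0 of 6 other cytosolic members had it. Part of that literature rests on such sites, so this overlap is no independent observation. The matches with 16 bases on either side, fewer where 30 bases after the start were reached, are shown in the direction of transcription with the motif or its reverse complement in capitals, and ASNS is added as a known target of ATF4. In GRCh38.p14 they lie at chr16:70289670-70289709 (AARS, minus strand), chr11:3057402-3057441 (CARS, minus strand), chr7:30594829-30594868 (GARS, plus strand), chr9:92293687-92293726 (IARS, minus strand), chr12:57488048-57488087 (MARS, plus strand), chr18:57621807-57621838 (NARS, minus strand), chr5:33440951-33440990 (TARS, plus strand) and chr7:97872453-97872492 (ASNS, minus strand).
AARS: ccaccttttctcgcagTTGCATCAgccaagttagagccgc
CARS: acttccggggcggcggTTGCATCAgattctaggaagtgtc
GARS: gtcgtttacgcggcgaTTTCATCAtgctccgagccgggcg
IARS: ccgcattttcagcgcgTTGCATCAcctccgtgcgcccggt
MARS: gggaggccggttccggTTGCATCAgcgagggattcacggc
NARS: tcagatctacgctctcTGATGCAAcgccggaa
TARS: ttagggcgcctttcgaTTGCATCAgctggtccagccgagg
ASNS: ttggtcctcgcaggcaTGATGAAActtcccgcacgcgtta
In 6 of the 7 synthetase genes the letters were TGATGCAA on either strand, while GARS and ASNS held another form of TGATGNAA. The form TGATGCAA was chosen for counting after the sequences were seen and was present in 0.866% of all windows and 1.08% of genes. The match began within 40 bases of the start in 6 of 7, the exception being AARS with base -187. In 6 of 7 it lay on the strand opposite to the gene, NARS being the exception.

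For the 7 genes with the motif the median log2 fold change was 0.0012, 4 being higher and 3 lower in VENins lines, and the 9 cytosolic genes with a window but no match -0.0079, with 4 higher and 5 lower. Without single pairs these medians ran from -0.015 to 0.029 and from -0.027 to 0.031, so neither had a stable sign. Mean deviations of the 7 genes were 0.059, -0.0087, -0.013, -0.014 and 0.0026 in VENsens and -0.083, -0.090, 0.037, 0.035 and 0.075 in VENins lines. Those of the 9 genes were 0.090, -0.045, 0.0030, -0.0058 and -0.0074 in VENsens and -0.078, -0.066, 0.021, 0.061 and 0.027 in VENins lines, so VENins lines 1 and 2 were low in both. The E-box CACGTG occurred in 1 of 16 cytosolic members, IARS, and in 3 of 14 mitochondrial members, CARS2, EARS2 and MARS2. It was present in 7.26% of all windows and in at least 1 window of 8.77% of genes. GAS occurred in 3 cytosolic members, CARS, TARS and WARS, and in 2 mitochondrial members, PARS2 and WARS2, beside 9.38% of genes. The interferon response element core was found in WARS and EARS2, beside 4.38% of genes.

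Genes that work next to the synthetases also gave 0 calls in edgeR's quasi-likelihood test with Benjamini-Hochberg adjustment, while DESeq2 called 0 with and 0 without the block. At an unadjusted p under 0.05 this edgeR fit had 0, beside 16.2% of all tested genes. Other fits had up to 3 in a list, for the other charging enzymes without pair 5. For mitochondrial translation factors DESeq2 with no block had 2. The scaffold genes AIMP1, AIMP2 and EEF1E1 were higher in VENins lines in 3 of 3, and in 2 of 3 without pair 2 or without pair 4. On the log2 scale AIMP2 was at 0.10 (SE 0.077, 95% interval -0.063 to 0.26) and AIMP1 at 0.059 (SE 0.058, 95% interval -0.064 to 0.18) (edgeR's quasi-likelihood test with Benjamini-Hochberg adjustment, adjusted p = 0.553 and 0.662; higher in 4 and 3 of 5 pairs). Of 11 other charging enzymes, which include the selenocysteine pathway and the mitochondrial glutamine amidotransferase, 7 were higher and 4 lower, with PSTK at 0.18 (SE 0.086, 95% interval -0.0021 to 0.37) (adjusted p = 0.315, edgeR's quasi-likelihood test with Benjamini-Hochberg adjustment; higher in 5 of 5 pairs). Of 5 tested cytosolic elongation factors, which bring charged transfer RNA to the ribosome, 2 were higher and 3 lower (3 higher without pair 1), with EEF1A1 at -0.075 (SE 0.052, 95% interval -0.19 to 0.036) (adjusted p = 0.505, edgeR's quasi-likelihood test with Benjamini-Hochberg adjustment; higher in 2 of 5 pairs). EEF1D was at 0.10 (SE 0.069, 95% interval -0.050 to 0.24) (adjusted p = 0.517, edgeR's quasi-likelihood test with Benjamini-Hochberg adjustment; higher in 4 of 5 pairs). Of 9 mitochondrial translation factors 8 were higher and 1 lower, with MTRF1 at 0.15 (SE 0.073, 95% interval -0.0072 to 0.30) (adjusted p = 0.333, edgeR's quasi-likelihood test with Benjamini-Hochberg adjustment; higher in 5 of 5 pairs). MTIF3 was at 0.13 (SE 0.074, 95% interval -0.025 to 0.29) (adjusted p = 0.399, edgeR's quasi-likelihood test with Benjamini-Hochberg adjustment; higher in 4 of 5 pairs).

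Of the 10 leukemia markers, 6 were higher and 4 lower in VENins lines. In the edgeR fit with the block PAX5 alone was called, beside 0.197% of all tested genes. The number called was 2 with DESeq2 and no block, 2 with no filter on low counts and 2 without pair 4. In the main edgeR fit 2 higher and 2 lower markers had an unadjusted p under 0.05, beside 16.2% of all tested genes. The groups did not overlap in 2 of 10 markers, beside 4.66%. PAX5 was lower in VENins lines, with a log2 fold change of -0.31 (SE 0.053, 95% interval -0.43 to -0.20) (adjusted p = 0.0272, edgeR's quasi-likelihood test with Benjamini-Hochberg adjustment; higher in 0 of 5 pairs). Leaving out pair 2, 3 or 5 ended the call (adjusted p = 0.242, 0.0597 and 0.0647 in edgeR's quasi-likelihood test with Benjamini-Hochberg adjustment), within a range of 1.24e-06 to 0.242 over all alternatives. Of the 5 tested markers of other cell types, 1 was higher and 4 lower (3 higher without pair 3), with CSF1R at a log2 fold change of 0.23 (SE 0.10, 95% interval 0.024 to 0.44) (adjusted p = 0.261, edgeR's quasi-likelihood test with Benjamini-Hochberg adjustment; higher in 4 of 5 pairs). LYZ was at -0.47 (SE 0.30, 95% interval -1.12 to 0.18) (adjusted p = 0.470, edgeR's quasi-likelihood test with Benjamini-Hochberg adjustment; higher in 1 of 5 pairs). In that list 0 were called by edgeR, and DESeq2 called 0 with and 0 without the block. An unadjusted p under 0.05 was reached by 1, beside 16.2% of all tested genes. Whether these markers vary with the synthetases was not tested.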

How the data were processed

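The authors deposited raw read counts per Ensembl gene for each of the 10 libraries. Per the submitters' processing notes these came from bcl2fastq 2.20.0.422, Bowtie2 2.3.5.1, SAMtools 1.9 and HTSeq 0.9.1 on hg19; the strand setting is not stated. Gene counts held 52.7% to 54.2% of reads. Names, exon lengths and overlaps came from GENCODE 29, in which 52526 of 63677 identifiers were found. Genes past edgeR's filter (minimum count 10) were fitted in edgeR 4.0.16 (R 4.3.3) by its quasi-likelihood test with TMM scaling and line number as a block, a choice made here because the study's methods name a paired analysis but not the pairs; the Benjamini-Hochberg adjustment covers all tested genes at a threshold of 0.05. Alternatives were DESeq2 1.42.0, no block, other scalings and filters, and leaving out each pair. The code was tested on simulated data. Members and lists were chosen with earlier results of these data known. Shown in full are the 5 cytosolic and 4 mitochondrial members with the smallest p, the highest and lowest per length in each compartment, HARS, HARS2, GARS, KARS and WARS, and from each other list 1 or 2 of the genes with the smallest p plus ATF4, ASNS and DDIT3; MARS was chosen after its values were seen.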

Additional observations from a re-analysis of the deposited data

Results flagged for a closer look

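Single lines stood apart from the other 4 of their group, on the log2 scale, in 3 of 68 sets of 5 values (34 members in both groups). Chance alone gives about 1 in 20, or 3.4 sets, so the count is no more than chance gives. WARS was at 547 CPM in VENsens line 1 and at 368 to 393 CPM in the other VENsens lines. RARS was at 46.0 CPM in VENins line 5 and at 52.4 to 53.8 CPM in the other VENins lines. FARSB, a subunit of the phenylalanyl enzyme, was at 69.6 CPM in VENins line 5 and at 77.4 to 80.8 CPM in the other VENins lines, so VENins line 5, the highest library for 7 cytosolic members, was the lowest of its group for these.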

How the results depend on the processing

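No synthetase gene was called under any alternative run, and the smallest adjusted p of a member was 0.102, for EPRS with DESeq2 and no block. The number of called genes overall moved more. It was 33 with line number as a replicate block, 149 without the block, 217 with DESeq2 and the block, 739 with DESeq2 and no block, 664 with no filter on low counts, and 6 to 331 when a pair was left out (57, 6, 17, 331 and 9 without pairs 1 to 5); the cause was not tested. Lines with the same number did not deviate together (correlations across genes -0.10 to 0.028 over 5 pairs). The study calls its RNA analysis paired, and what else lines of the same number share could not be checked. Counts of pairs in a direction depend on this numbering. Leaving out a pair turned the sign of the log2 fold change of WARS (-0.19 to 0.031), AARS (-0.12 to 0.0094), HARS (-0.027 to 0.021), GARS (-0.021 to 0.029) and SARS2 (-0.062 to 0.092), among the 15 members shown by the rule for named genes, and of 13 of the other 19 members (CARS, DARS, FARSA, MARS, NARS, SARS, TARS, AARS2, EARS2, FARS2, LARS2, MARS2 and WARS2), none of which was called; the cause was not tested. The other 10 named members kept their sign, with ranges for EPRS (-0.19 to -0.11), IARS (-0.11 to -0.038), KARS (0.041 to 0.088), RARS (0.079 to 0.13), CARS2 (0.062 to 0.17), HARS2 (0.0097 to 0.053), IARS2 (-0.067 to -0.00095), NARS2 (-0.24 to -0.11), TARS2 (-0.12 to -0.10) and YARS2 (0.078 to 0.12). The cytosolic median ran from -0.015 to 0.029 and the mitochondrial from -0.024 to 0.0011 without single pairs. Leaving out members with over 10% of exon bases shared with another gene, an alternative chosen after seeing the data, gave medians of 0.016 and -0.030. Counts of 94 to 143 reads limit SARS2, whose interval was the widest.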

Other observations

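Mitochondrial ribosomal protein genes were taken by their symbols (MRPL or MRPS) and added to the lists with earlier results known. Mitochondrial ribosomes use the charged transfer RNAs of the organelle, and whether each listed product is part of them was not checked. Of 73 tested genes 68 were higher and 5 lower in VENins lines with a median log2 fold change of 0.12, beside 6 and 9 of the 15 mitochondrial synthetases with -0.012. None of the 73 passed edgeR's quasi-likelihood test with Benjamini-Hochberg adjustment, 25 had an unadjusted p under 0.05, all of them higher, and DESeq2 called 1 with and 9 without the block. The same edgeR test called 1 without the block and 3 with no filter on low counts. The count of higher genes was 65 of 73 when library size alone set the scale, and without pair 2 it was 63 with a median of 0.074 and 8 at an unadjusted p under 0.05. Of all tested genes, 51.1% were higher and 16.2% had an unadjusted p under 0.05. Without pair 4, 1 was called. MRPL39 had 27.2, 26.8, 30.1, 28.1 and 29.3 CPM in VENsens lines 1 to 5 and 33.5, 38.2, 37.6, 33.5 and 33.1 CPM in VENins lines 1 to 5. All VENins lines lay above all VENsens lines, with a log2 fold change of 0.31 (SE 0.067, 95% interval 0.17 to 0.45) that did not pass (adjusted p = 0.0653, edgeR's quasi-likelihood test with Benjamini-Hochberg adjustment; higher in 5 of 5 pairs). MRPS36 had a log2 fold change of 0.25 (SE 0.072, 95% interval 0.10 to 0.41) (adjusted p = 0.123, edgeR's quasi-likelihood test with Benjamini-Hochberg adjustment; higher in 5 of 5 pairs). The difference between the lists was not tested.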
